A study of Rattus norvegicus with 24 samples.

Results

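The genes described here are 10 markers of liver macrophages, followed across 24 rat livers: Clec4f, Cd163, Vsig4, Marco, Cd68, C1qa, C1qb, Csf1r, Cd14 and Tlr4. They were found by gene name among the 26278 names on the array, where 10 genes had 11 probes, 2 of them for Csf1r. By RefSeq on GRCr8 the genes lie at chr4:117686686-117696407 (Clec4f), chr4:158770751-158804146 (Cd163), chrX:65154422-65179708 (Vsig4), chr13:34169011-34210340 (Marco), chr10:54880562-54882441 (Cd68), chr5:154417086-154419933 (C1qa), chr5:154402276-154407827 (C1qb), chr18:56834152-56860804 (Csf1r), chr18:28609558-28611409 (Cd14) and chr5:85161247-85174882 (Tlr4). All 10 genes passed the filter on dim probes and were tested among 18641 genes. RNA came from the livers of male Wistar rats, 1 array per rat, which were 6 months old when feeding of a purified diet began and 9 months old after 12 weeks. The low copper/30% sucrose diet (copper below 0.3 mg/kg) and the adequate copper/30% sucrose diet (copper at 125 mg/kg) were each fed to 6 rats. The low copper/10% sucrose diet and the control diet, which had adequate copper and 10% sucrose, were each fed to another 6. The sample titles refer to copper-adequate diets as high copper, and all diets had their carbohydrate balanced with starch and dextrin. The control diet was thus itself a purified diet with sucrose, and rats on standard pellets were not analysed here.

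Kupffer cells are the resident macrophages of the liver and line its sinusoids, where they take up particles, bacteria, old red cells and endotoxin from portal blood. Clec4f is a lectin that is found on Kupffer cells in rodents, Cd163 takes up haemoglobin bound to haptoglobin, Vsig4 binds fragments of complement C3, and Marco is a scavenger receptor for bacteria and particles. Cd68 is a membrane protein of late endosomes and lysosomes, and C1qa and C1qb encode chains of C1q, which starts the classical complement pathway. Csf1r is the receptor for the growth factors CSF1 and IL-34, on which most macrophages depend. Cd14 and Tlr4 are receptor parts for endotoxin, and Cd14 can also be made by hepatocytes.

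Levels are on a log2 scale with the array's 75th percentile set to 0. The level of one probe cannot be compared with that of another. That percentile corresponded to a signal of 434 to 1287, and the local background of the arrays was 38 to 48. Tlr4 was well above background in 16 of 24 livers, and the other member genes were so in 24 of 24. The mean level of 8 hepatocyte genes lay between 6.31 and 7.18 across the livers, the labelled tissue. The 3 slides did not hold the diets evenly. The low copper/30% sucrose rats were all on slide 1, together with 2 of the adequate copper/30% sucrose rats. Slide 2 carried 4 adequate copper/30% sucrose and 4 low copper/10% sucrose rats, and slide 3 carried 2 low copper/10% sucrose and 6 control rats. No slide held control rats beside rats on 30% sucrose, or low copper/30% sucrose rats beside low copper/10% sucrose rats. Those differences rest on slides that were joined only through other diets. In whole liver RNA, fewer macrophages and less RNA per macrophage cannot be told apart.

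A pair of rats stood apart from the rest in these genes and bears on the results that follow: rat 2 on low copper/10% sucrose and rat 5 on adequate copper/30% sucrose. Marco in rat 2 was at 0.53, 3.77 log2 units or 13.6-fold above the median of the other 5 rats of its diet. Rat 2 had the highest level among 24 rats for 9 of the 10 genes, with Cd14 the exception, and rat 5 was among the highest 2 for 8 of them. Differences are therefore also given without this pair, which had been picked because it stood apart. Both rats were on slide 2, and every fit with slide as a block kept them.

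No diet stood apart in the genes most typical of resident Kupffer cells. Clec4f had a lowest, median and highest level of 2.68, 3.12 and 3.73 on low copper/30% sucrose, 3.21, 3.65 and 4.43 on adequate copper/30% sucrose, and 2.73, 3.26 and 5.31 on low copper/10% sucrose, against 2.81, 3.47 and 3.72 on the control diet. Its ranges overlapped in every pair of diets, and the level of 5.31 belonged to rat 2 on low copper/10% sucrose. Cd163, the haemoglobin scavenger receptor, had levels of -0.80, -0.58 and -0.22 on low copper/30% sucrose, -0.26, -0.11 and 1.14 on adequate copper/30% sucrose, and -1.28, -0.27 and 1.35 on low copper/10% sucrose, against -1.0, -0.31 and -0.09 on the control diet. The 2 rats that stood apart held its highest levels. Among the other rats on adequate copper/30% sucrose, Cd163 lay within the range of the remaining diets.

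The scavenger receptors Marco and Vsig4 had the widest spread. Marco was at -4.32, -3.39 and -2.70 on low copper/30% sucrose, -3.21, -2.78 and -1.17 on adequate copper/30% sucrose, and -3.80, -3.17 and 0.53 on low copper/10% sucrose, against -4.34, -3.49 and -2.59 on the control diet. Vsig4 was at -4.28, -3.92 and -2.50 on low copper/30% sucrose, -4.13, -3.32 and -1.73 on adequate copper/30% sucrose, and -4.42, -3.47 and -0.81 on low copper/10% sucrose, against -3.78, -3.49 and -2.05 on the control diet. Both genes overlapped between all diets. The SD of Marco over 6 rats was 0.67 on low copper/30% sucrose, 0.77 on adequate copper/30% sucrose, and 1.59 on low copper/10% sucrose, against 0.67 on the control diet.

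The endosomal protein Cd68 had levels of 0.31, 0.79 and 1.64 on low copper/30% sucrose, 0.80, 1.10 and 2.19 on adequate copper/30% sucrose, and 0.37, 0.87 and 3.17 on low copper/10% sucrose, against 0.32, 1.15 and 1.35 on the control diet. C1qa, the A chain of C1q, had levels of 2.31, 2.45 and 3.12 on low copper/30% sucrose, 2.65, 2.88 and 4.02 on adequate copper/30% sucrose, and 2.04, 2.57 and 4.57 on low copper/10% sucrose, against 2.21, 2.69 and 3.01 on the control diet. C1qb, the B chain, had levels of 3.33, 3.57 and 4.18 on low copper/30% sucrose, 3.86, 3.98 and 5.06 on adequate copper/30% sucrose, and 3.16, 3.76 and 5.68 on low copper/10% sucrose, against 3.37, 3.82 and 4.20 on the control diet. All diets overlapped for these 3 genes, and the same pair of rats held the highest 2 levels of each.

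For the endotoxin receptors, Cd14 had levels of 0.30, 1.41 and 2.30 on low copper/30% sucrose, 1.11, 1.66 and 2.25 on adequate copper/30% sucrose, and 0.48, 1.55 and 2.61 on low copper/10% sucrose, against 0.74, 1.46 and 2.04 on the control diet. Tlr4 was dim, with -5.57, -5.22 and -5.00 on low copper/30% sucrose, -6.29, -5.05 and -4.28 on adequate copper/30% sucrose, and -6.44, -5.05 and -3.64 on low copper/10% sucrose, against -5.93, -5.36 and -5.07 on the control diet. All diets overlapped for both. Tlr4 was well above background in 4 of 6 rats on low copper/30% sucrose, 5 on adequate copper/30% sucrose and 4 on low copper/10% sucrose, against 3 on the control diet, so its low values are poorly measured.

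**Figure D1:**
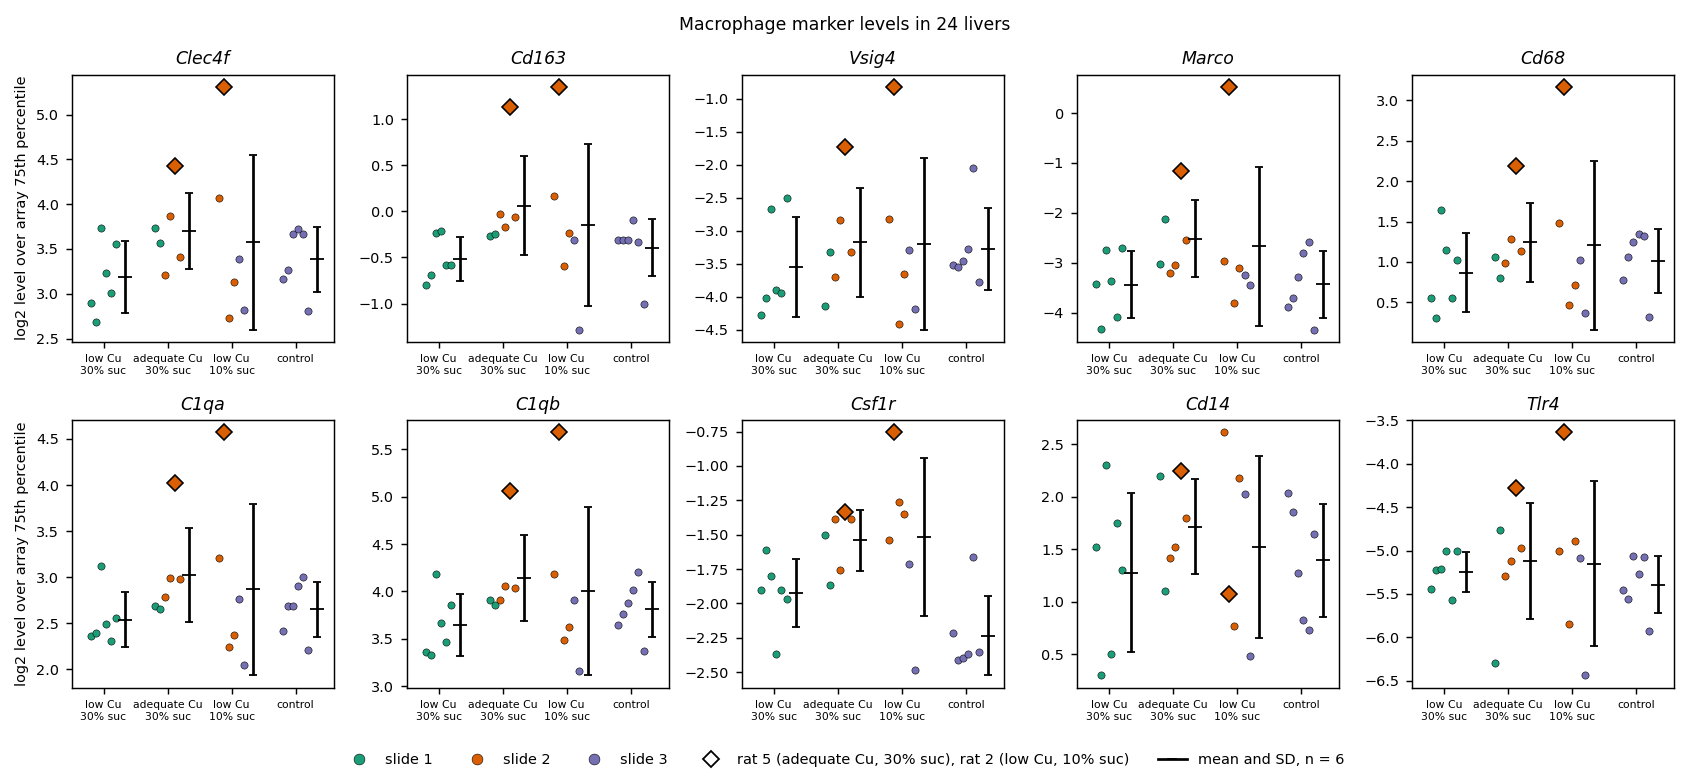
Level of each macrophage gene (log2 scale, 75th percentile of each array set to 0, own axis range per panel) in every rat, by diet; colour marks the slide, diamonds mark the 2 rats that stood apart, and the black mark and bar give mean and SD over 6 rats. All diets overlap for each gene in these panels, and the diamond of low copper/10% sucrose is the highest point of 9 of the 10 genes.

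The mean level ran in a common order over the diets. Adequate copper/30% sucrose had the highest mean for 9 of the 10 genes, and low copper/10% sucrose for the other, Csf1r. Low copper/30% sucrose had the lowest mean for 8, and the control diet for Csf1r and Tlr4. In the 6 comparisons that were tested only Csf1r passed, so for the other 9 genes this order was not separated from the spread between rats. Without the 2 rats 6 of those 9 genes kept their highest mean on adequate copper/30% sucrose. Csf1r then had its highest mean there too (-1.58, against -1.67 on low copper/10% sucrose), while Cd14 had it on low copper/10% sucrose, Tlr4 on low copper/30% sucrose and Vsig4 on the control diet. Without the pair, low copper/10% sucrose had the lowest mean for 4 genes and low copper/30% sucrose for 5.

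The comparison of adequate copper/30% sucrose against the control diet asks what more sucrose did where copper was adequate. All 10 genes had a difference above 0, with a median of 0.32 against 0.07 over all genes tested. Only Csf1r rose, by 0.69 on the log2 scale (SE 0.20, limma with Benjamini-Hochberg adjusted p = 0.0174). That is 1 of 10 members, where 20.9% of all genes passed and 18.5% passed as higher. The other 9 differences lay between 0.10 for Vsig4 and 0.91 for Marco, and the smallest adjusted p among them was 0.253 in limma. For Marco the 95% interval of the difference was -0.21 to 2.04. Without the pair the median was 0.17 and Csf1r was again the 1 member called (16.8% of all genes called). With slide as a block the median was -0.30, all 10 genes were below 0 and 0 were called (0% of all genes). That estimate passes through slide 2, which held both rats of the pair. It was not made without them, so their part in these signs was not tested.

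Low copper/10% sucrose against the control diet asks what low copper did at the lower sucrose content. Here too all 10 differences were above 0, with a median of 0.20 against 0.06 over all genes. Csf1r rose by 0.72 (SE 0.20, limma adjusted p = 0.0143), again 1 of 10 members, against 18.6% of all genes in either direction and 18.0% as higher. The other 9 lay between 0.08 for Vsig4 and 0.76 for Marco, and the smallest adjusted p among them was 0.409. Without the pair the median was -0.09, 3 genes were above 0 and Csf1r was the 1 member called (15.7% of all genes called). With slide as a block the median was -0.28, 2 genes were above 0 and 0 were called (0% of all genes). For this comparison the block estimate is the difference within slide 3, which held 2 rats of this diet beside the 6 control rats.

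Low copper/30% sucrose, the diet with both changes, had 8 genes below and 2 above the control diet, with a median of -0.12 against 0.05 over all genes. None of the 10 passed the limma test by adjusted p, where 1.76% of all genes passed. Nor did any have an unadjusted limma p under 0.05, as 3192 of 18641 genes did. The differences ran between -0.28 for Vsig4 and 0.31 for Csf1r. Against adequate copper/30% sucrose, all 10 genes were lower on low copper/30% sucrose, with a median of -0.46 against -0.04 over all genes. Marco differed by -0.92 (95% interval -2.04 to 0.20) and Cd163 by -0.58 (-1.20 to 0.05). Without the pair of rats Marco differed by -0.65 and Cd163 by -0.36, and the median was -0.32 with 9 of the 10 genes lower. None passed, with 0% of all genes called, and on slide 1, which held 6 rats on low copper and 2 on adequate copper at 30% sucrose, 8 of the 10 were lower with a median of -0.24. At low copper, 30% sucrose minus 10% sucrose gave 10 negative differences with a median of -0.36 against -0.05 over all genes, 0 of 10 past the test and 0% of all genes called. Without rat 2 of the 10% sucrose diet and rat 5, that median was -0.03. These low copper diets shared no slide. With slide as a block the median was -0.21, 2 genes were above 0 and 0 were called (0.0322% of all genes). No member reached an unadjusted limma p under 0.05 in these 2 comparisons either, where 1844 and 1786 of 18641 genes did.

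**Figure D2:**
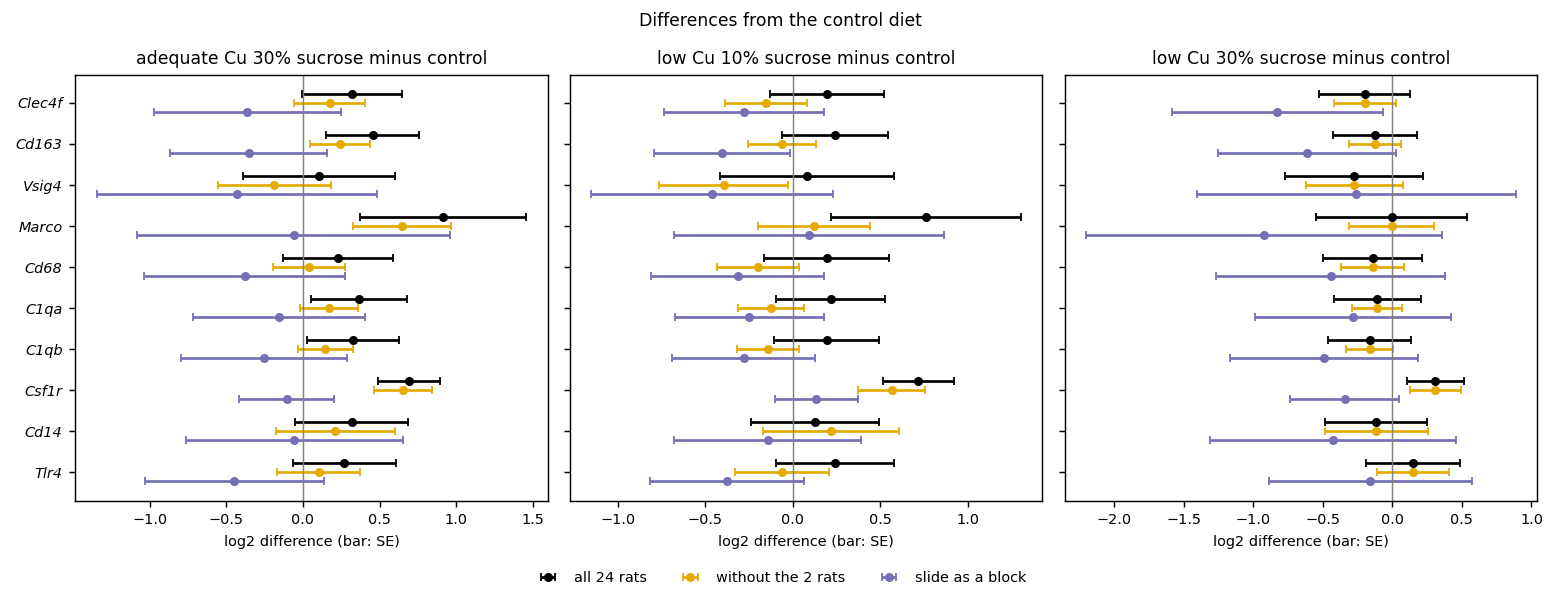
Log2 difference of each macrophage gene from the control diet, for adequate copper/30% sucrose, low copper/10% sucrose and low copper/30% sucrose, with the SE as bars; black is the fit of all 24 rats, yellow the fit without the 2 rats and violet the fit of all 24 rats with slide as a block. Black points are all above 0 in the first and second panel, violet points are all below 0 in the first, and Csf1r is the gene whose black bar lies farthest from 0 relative to its length.

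Csf1r, the growth factor receptor, was the member whose diet differences passed. By its brighter probe the level had a lowest, median and highest of -2.37, -1.90 and -1.61 on low copper/30% sucrose, -1.87, -1.45 and -1.33 on adequate copper/30% sucrose, and -2.49, -1.44 and -0.76 on low copper/10% sucrose, against -2.41, -2.36 and -1.66 on the control diet. The range of each diet overlapped that of the control diet. Rat 5 of the control diet lay well above the other 5 control rats, which spanned -2.41 to -2.21, and the overlap with adequate copper/30% sucrose rested on that rat alone. Rat 4 on low copper/30% sucrose (-2.37) lay within that span, and rat 6 on low copper/10% sucrose (-2.49) lay below it. For Csf1r, low copper minus adequate copper was -0.38 at 30% sucrose and 0.72 at 10% sucrose. That is an interaction of -1.10 (SE 0.29, limma adjusted p = 0.00921), against 20.9% of all genes called and 19.0% as lower. Without the pair of rats the Csf1r interaction was -0.91 (limma adjusted p = 0.0290, 14.6% of all genes called). With slide as a fixed block it was -0.37 (limma adjusted p = 0.653, 0.0483% of all genes called). The other 9 members had interactions between -1.68 for Marco (limma adjusted p = 0.125) and -0.36 for Tlr4, none of them past the test. Over all 10 members the median interaction was -0.69. Without the pair of rats that median was -0.19, with 3 genes above 0, and Marco was at -0.77. With slide as a block the median was 0.08, with 6 genes above 0. These 3 Csf1r results share the control rats.

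Both Csf1r probes are shown because they sampled different stretches of one transcript. The brighter probe, with 2 spots per array, is the ground for the call. The second, with 1 spot per array, was an alternative. Each is a 60-base probe in the sense direction of the gene, on the plus strand of chromosome 18 in rn4. The brighter one maps to chr18:57105231-57105932, a span of 702 bases that crosses intron sequence, and the second to chr18:57093036-57093095.
Csf1r brighter probe: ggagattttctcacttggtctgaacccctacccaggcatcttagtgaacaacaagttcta
Csf1r second probe: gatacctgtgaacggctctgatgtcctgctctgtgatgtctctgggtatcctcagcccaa

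The second probe gave larger differences from the control diet than the brighter one, and a larger interaction. It was at -2.29, -2.13 and -1.61 on low copper/30% sucrose, -2.00, -1.69 and -1.43 on adequate copper/30% sucrose, and -2.62, -1.30 and -0.96 on low copper/10% sucrose, against -3.13, -2.94 and -2.75 on the control diet. All rats of each other diet lay above all control rats, and the narrowest gap was between -2.62 on low copper/10% sucrose and -2.75 on the control diet. Such a gap was found in 2.69% of kept probes for low copper/30% sucrose, in 11.6% for adequate copper/30% sucrose and in 5.02% for low copper/10% sucrose. When the second probe stood for the gene, the difference from the control diet was 0.88 (limma adjusted p = 0.0514) on low copper/30% sucrose, 1.25 (limma adjusted p = 0.00131) on adequate copper/30% sucrose and 1.30 (limma adjusted p = 0.00105) on low copper/10% sucrose. When slide was a fixed block, these 3 differences were -0.21 (limma adjusted p = 0.9996), -0.07 (0.999) and 0.34 (0.745). The interaction by the second probe was -1.67 (limma adjusted p = 0.00224) and, with the block, -0.47 (0.373). For low copper minus adequate copper at 30% sucrose the second probe gave -0.37, close to the -0.38 of the brighter one.

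The Csf1r level also differed between slides within a diet. The second probe lay between -3.13 and -2.58 on the 8 arrays of slide 3, and between -2.29 and -0.96 on the 16 arrays of slides 1 and 2, without overlap, which 0.982% of kept probes did in that direction. Within low copper/10% sucrose, the 4 rats of slide 2 averaged -1.16 and the 2 rats of slide 3 averaged -2.60 by the second probe, and -1.23 and -2.10 by the brighter one. Within slide 3, low copper/10% sucrose minus the control diet was 0.34 by the second probe and 0.13 by the brighter one, which are also the block estimates of that difference. With slide as a fixed block the difference by the brighter probe was -0.11 (limma adjusted p = 0.999) for adequate copper/30% sucrose and 0.13 (limma adjusted p = 0.988) for low copper/10% sucrose, and the interaction was -0.37 (limma adjusted p = 0.653). Leaving out any 1 rat kept all 3 calls, with differences of 0.65 to 0.81 for adequate copper/30% sucrose and 0.56 to 0.91 for low copper/10% sucrose.

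**Figure D3:**
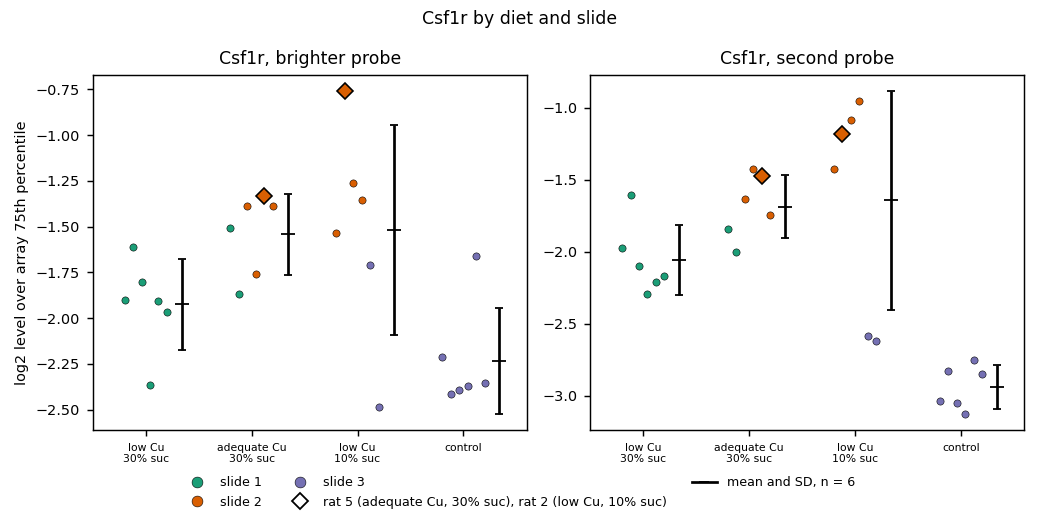
Csf1r level (log2 scale, 75th percentile of each array set to 0) by the brighter probe, left, and the second probe, right, in each rat by diet, coloured by slide, with mean and SD over 6 rats. By the second probe all violet points of slide 3 lie between -3.13 and -2.58, whichever of the diets they belong to, below all points of slides 1 and 2.

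The rats that stood apart did so in most of these genes at once. Rat 2 on low copper/10% sucrose exceeded the median of the other 5 rats of its diet by 2.84 for Vsig4, 2.45 for Cd68, 2.20 for C1qa, 2.18 for Clec4f, 2.05 for C1qb, 1.66 for Cd163, 1.45 for Tlr4 and 0.78 for Csf1r, beside the 3.77 for Marco. Its Cd14 was 0.95 lower than that median, the 18th highest of 24. Rat 5 on adequate copper/30% sucrose exceeded its diet by 1.86 for Marco, 1.58 for Vsig4, 1.30 for Cd163, 1.23 for C1qa, 1.14 for C1qb, 1.12 for Cd68, 0.86 for Clec4f, 0.84 for Tlr4, 0.72 for Cd14 and 0.17 for Csf1r. The median over members was 2.12 in rat 2 and 1.13 in rat 5, whereas over all genes it was -0.05 and 0.07. Levels more than 1 above the other rats of the diet were found in 5.44% of all genes in rat 2 and in 4.70% in rat 5.

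General leucocyte genes and most neutrophil genes were also high in these rats, and hepatocyte genes were not. All 8 general leucocyte genes were the highest of their diet in both rats, with a median deviation of 1.98 in rat 2 and 1.0 in rat 5. Of all genes, 15.05% were the highest of their diet in rat 2 and 22.53% in rat 5. Among 6 neutrophil genes the median deviation was 1.02 in rat 2 and 1.25 in rat 5, and the highest, for S100a8, a calcium-binding protein of neutrophils and monocytes, was 4.09 in rat 2 and 5.95 in rat 5. The lowest was 0.03 for Fpr1 in rat 2 and -0.67 for Mpo in rat 5. Of these 6 genes, 3 were the highest of their diet in rat 2 and 5 in rat 5. The 6 red blood cell genes had medians of 0.02 in rat 2 and 1.51 in rat 5. Of the 7 sinusoidal endothelial genes 6 were above the median of the other 5 rats of the diet in rat 2 and 7 in rat 5. Their median deviations were 0.36 in rat 2 and 0.81 in rat 5. The 8 stellate cell and fibroblast genes had medians of 0.55 and 0.72, and the 10 T, B and NK cell genes 0.94 and 0.71, in rat 2 and rat 5. None of the 8 hepatocyte genes was highest of its diet in either rat, but neither were most of all genes. The medians of the hepatocyte genes were -0.27 in rat 2 and 0.02 in rat 5. The part of these cells in the macrophage gene levels was not tested.

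**Figure D4:**
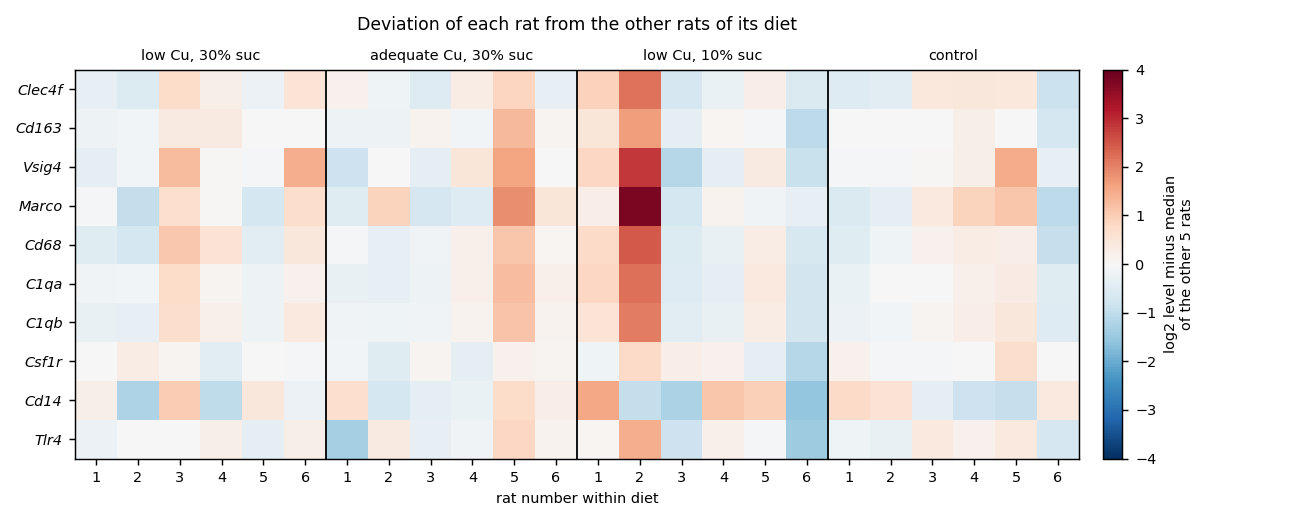
Level of each macrophage gene in each rat minus the median of the other 5 rats of its diet (log2 colour scale, red higher and blue lower), with rats in columns by diet. The darkest column is rat 2 on low copper/10% sucrose, which reaches 3.77 for Marco and is below 0 for Cd14; rat 5 on adequate copper/30% sucrose is red in every row.

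A block of 7 genes varied together from rat to rat within diets. Correlations were computed over the 24 rats on deviations from the diet mean, for 45 pairs of members, with permutation within diets and Benjamini-Hochberg adjustment over the 45. The points share the array and thus its scaling, and the rats of 2 diets lay on 2 slides. In each of these diets the means of all 10 members differed in one direction between slides. Slide 2 minus slide 3 was 0.41 to 1.0 on low copper/10% sucrose, and slide 1 minus slide 2 was -0.83 to -0.08 on adequate copper/30% sucrose. Both slide 2 means include a rat of the pair that stood apart. These differences were not computed without the pair, so slide and single rats cannot be told apart in them. The 21 pairs among Clec4f, Cd163, Vsig4, Marco, Cd68, C1qa and C1qb had Pearson's r of 0.79 to 0.99 and Spearman's rho of 0.70 to 0.98, and all 21 passed by both measures, with adjusted permutation p of at most 0.000959 for rho. The smallest p that 100000 permutations can give is 1e-05. Without the 2 rats r was 0.45 to 0.95, and with the 2 rats farthest from the median on the x axis left out it was 0.54 to 0.96. Tlr4 passed with all 7 of these genes, with r of 0.75 to 0.85, rho of 0.60 to 0.79, and r of 0.52 to 0.72 without the 2 farthest rats. On deviations from the mean of the diet on its slide, with permutation within diet and slide, the 21 pairs had r of 0.78 to 0.99 and rho of 0.74 to 0.97, Tlr4 had r of 0.73 to 0.81 with the 7 genes, and the same 28 pairs passed by both measures.

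Csf1r and Cd14 did not follow this pattern. Csf1r had r of 0.43 to 0.59 with the 7 genes and Tlr4, with rho of 0.03 to 0.21, and 0 of 8 pairs passed. Its r was 0.02 to 0.37 without the pair of rats and -0.02 to 0.41 without the 2 farthest, so its r rested on few rats. Within diet and slide its r was 0.32 to 0.50, and again 0 of 8 passed. Cd14 had r of -0.03 to 0.21 and rho of 0.02 to 0.29 with the other 9 genes, 0 of them past the test, and r of -0.18 to 0.36 without the 2 farthest. Without the pair of rats the r of Cd14 was 0.06 to 0.41. The median r was then 0.36 for Cd14 and 0.26 for Csf1r. Cd14 and Tlr4, the endotoxin receptor pair, had r of 0.04.

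**Figure D5:**
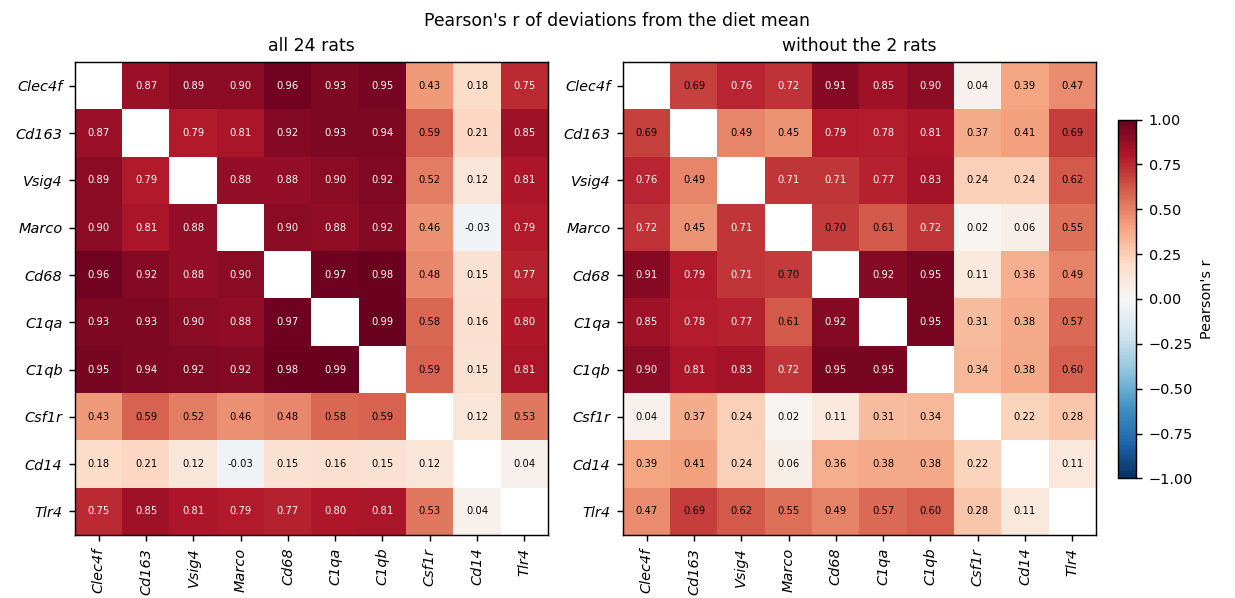
Pearson's r of deviations from the diet mean for each pair of macrophage genes, over 24 rats, left, and without the 2 rats that stood apart, right (red positive, blue negative). The 7 genes of the upper left block have r of 0.79 to 0.99 and, without the pair, 0.45 to 0.95, while the Csf1r and Cd14 rows are paler.

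The genes on the array most like each member were sought by r of deviations from the diet mean over 24 rats, as a description with no test. Cd68 was most like Aif1, a calcium-binding protein of macrophages and microglia (r = 0.97). Clec4f, C1qa and C1qb were each most like Ctss, the lysosomal protease cathepsin S (r = 0.96, 0.97 and 0.98). Marco was most like Cd5l, a secreted protein of tissue macrophages (r = 0.95), Cd163 most like the transcription factor Etv5 (r = 0.94), and both Vsig4 and Tlr4 most like Pltp, the phospholipid transfer protein (r = 0.96 and 0.88). Csf1r was most like Ldhb, a lactate dehydrogenase subunit (r = 0.90). Cd14 was most like Tmco6 (r = 0.83). Without the pair of rats the r with these genes was 0.77 to 0.94, lower than over 24 rats for 9 members and higher for Cd14 (0.87). Aif1 for Cd68, Ctss for Clec4f and C1qb, and Tmco6 for Cd14 were then again the closest. The other 6 members had another closest gene, such as Ifitm1 for C1qa (r = 0.91, against 0.90 with Ctss), Fcna for Marco (0.86, against 0.81 with Cd5l) and Lxn for Cd163 (0.86, against 0.82 with Etv5). On GRCr8, Tmco6 lies beside Cd14 on chromosome 18 with 11859 bases between them and 0 annotated genes in between. C1qa and C1qb lie on chromosome 5 with 1 gene, C1qc, between them.

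Promoters of the genes that varied together were searched for a short motif, and 4 of them are shown: Cd68, C1qb and Tlr4, which hold it, and C1qa, which does not. The motif was GAGGAA, the core bound by Spi1 (PU.1), a transcription factor of the macrophage lineage, on either strand (TTCCTC in reverse), in the 250 bases before the start used for each gene. Sequences are from RefSeq on GRCr8, 5′ to 3′ on the strand of the gene, with the motif in capitals.
Cd68, chr10:54882442-54882691, minus strand: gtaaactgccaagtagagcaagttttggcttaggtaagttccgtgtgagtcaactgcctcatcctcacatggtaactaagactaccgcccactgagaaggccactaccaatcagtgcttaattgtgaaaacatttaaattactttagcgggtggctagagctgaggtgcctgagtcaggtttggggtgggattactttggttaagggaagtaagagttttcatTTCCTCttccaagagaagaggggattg
C1qb, chr5:154407828-154408077, minus strand: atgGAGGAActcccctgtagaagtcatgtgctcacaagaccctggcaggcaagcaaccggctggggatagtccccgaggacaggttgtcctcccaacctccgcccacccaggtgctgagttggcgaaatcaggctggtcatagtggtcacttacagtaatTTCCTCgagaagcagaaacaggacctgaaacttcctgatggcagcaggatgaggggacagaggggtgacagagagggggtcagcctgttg
Tlr4, chr5:85160997-85161246, plus strand: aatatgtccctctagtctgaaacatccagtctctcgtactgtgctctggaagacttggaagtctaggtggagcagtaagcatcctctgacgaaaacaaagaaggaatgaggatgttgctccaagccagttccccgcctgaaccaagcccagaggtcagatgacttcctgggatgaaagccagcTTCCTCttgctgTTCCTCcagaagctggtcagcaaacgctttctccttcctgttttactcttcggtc
C1qa, chr5:154419934-154420183, minus strand: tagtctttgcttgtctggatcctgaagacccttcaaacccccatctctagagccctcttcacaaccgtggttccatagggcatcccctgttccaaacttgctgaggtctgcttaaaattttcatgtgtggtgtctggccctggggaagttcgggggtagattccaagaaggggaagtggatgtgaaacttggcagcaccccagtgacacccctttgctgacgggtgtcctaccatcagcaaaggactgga

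The motif was found in 6 of the 10 promoters, those of Cd68, Marco, Csf1r, Cd14, Tlr4 and C1qb, and in 23.3% of 33469 promoters of the same length. In Cd68 it began at position -27 from the start, and in C1qb and Tlr4 it occurred at 2 places. It did not separate the genes by their pattern, since Csf1r and Cd14 held it while Clec4f, Cd163, C1qa and Vsig4 did not. A motif bound by C/EBP factors, TTGCNNAA, was found in 0 of the 10 and in 9.22% of all promoters. For 4 members the window was not wholly outside the outer bounds of the annotated gene. It lay wholly inside them for Marco and Cd14, mostly inside for Csf1r, and overlapped their edge for Cd163. The matches in Marco, Csf1r and Cd14 are thus not all upstream of those bounds. A match describes letters only and says nothing of binding.

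Of 65 further macrophage and leucocyte genes in 7 lists, 5 rose in adequate copper/30% sucrose against the control diet, 2 in low copper/10% sucrose and 0 in low copper/30% sucrose (limma, with 15, 5 and 3 at an unadjusted p under 0.05). Over all 18641 genes, 6129, 5241 and 3192 had an unadjusted limma p under 0.05 in these comparisons. In adequate copper/30% sucrose against the control diet, 2 of 9 genes of the endotoxin receptor pathway rose, Lbp, which carries endotoxin to Cd14 (1.48, limma adjusted p = 0.0201), and the adaptor Tirap (1.02, limma adjusted p = 0.0277). Of 6 genes around the CSF1 receptor 1 rose, Spi1 (0.95, limma adjusted p = 0.0255), while the ligand Csf1 differed by 0.58 (limma adjusted p = 0.129) and Il34 by 0.12. Of 9 monocyte and recruited macrophage genes 1 rose, the integrin subunit Itgam (0.87, limma adjusted p = 0.00705), and of 13 resident Kupffer cell and scavenger genes 1, the receptor Axl (0.63, limma adjusted p = 0.0408; 0.0886 without the pair of rats). None of 9 classical complement genes, 11 lysosome and lipid genes and 8 general leucocyte genes passed limma's test (0, 0 and 1 at an unadjusted p under 0.05), including C1qc, the third chain of C1q, which differed by 0.15 (limma adjusted p = 0.860). These counts stand beside the 20.9% of all genes called and, for the unadjusted counts, the 6129 of 18641 genes.

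Markers of other blood cells also moved with this comparison. Of 6 neutrophil genes 4 rose, led by S100a8 (2.94, limma adjusted p = 0.0162), S100a9 (2.75) and the chemokine receptor Cxcr2 (1.90, limma adjusted p = 0.000961). Rat 5 exceeded the median of the other rats of its diet by 5.95 for S100a8 and 5.41 for S100a9. Without the pair of rats the differences from the control diet were 2.01 and 1.93, with the same 4 genes called. Of 10 T, B and NK cell genes 5 rose, among them the T cell kinase Lck (1.12, limma adjusted p = 0.00185), and 4 without the pair. Of 6 red blood cell genes 2 rose, and 1 without the pair, with all 6 above 0 and a median difference of 1.31. These counts too stand beside 20.9% of all genes called, and 16.8% without the pair. The mean level of the neutrophil list lay between -3.70 and -1.08 on adequate copper/30% sucrose and between -4.91 and -4.30 on the control diet, without overlap. Of single genes tested, 11.9% had all rats of that diet above all control rats, and these diets shared no slide. The mean level of the general leucocyte list overlapped, at 0.82 to 2.16 on adequate copper/30% sucrose and 0.49 to 1.21 on the control diet. The part of these cells in the Csf1r difference was not tested.

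On low copper/10% sucrose against the control diet, Itgam (0.78, limma adjusted p = 0.0129) and Axl (0.68, limma adjusted p = 0.0276; 0.0736 without the pair of rats) were the only genes that rose in the 7 macrophage and leucocyte lists. None of the 9 endotoxin pathway genes and none of the 6 around the CSF1 receptor passed limma's test (1 and 0 at an unadjusted p under 0.05, beside 5241 of 18641 genes). Of the neutrophil genes 2 of 6 rose, Csf3r and Cxcr2, and of the T, B and NK cell genes 5 of 10, beside 18.6% of all genes called. Without the pair these counts were 2 and 3, beside 15.7%. On low copper/30% sucrose against the control diet no gene of those 7 lists passed, and the neutrophil receptor Csf3r rose (1.30, limma adjusted p = 0.0284), where 1.76% of all genes passed. In the interaction, Lbp (-1.91), Nfkbia (-0.93), Spi1 (-1.34), C3ar1 (-1.62) and Itgam (-1.21) were lower, each with a limma adjusted p of 0.0464 or less, as were 4 of 6 neutrophil genes and 6 of 10 T, B and NK cell genes, beside 20.9% of all genes called and 19.0% as lower. Without the pair of rats, Lbp (-1.08, limma adjusted p = 0.0372) and Itgam (-1.10, 0.0296) were called, and Nfkbia (limma adjusted p = 0.133), Spi1 (0.0807) and C3ar1 (0.101) were not. The neutrophil count was then 4 and the T, B and NK cell count 4, beside 14.6% of all genes. With slide as a block no gene of any list passed in any of the 6 comparisons, where 0 to 0.107% of all genes passed (0.107% for low copper minus adequate copper at 30% sucrose, 0.0322% for 30% minus 10% sucrose at low copper and 0.0483% for the interaction). The lists were drawn up with earlier results of these data known.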

How the data were processed

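Liver RNA of 24 rats was labelled with Cy3 and hybridised to one-colour Agilent arrays, 1 per rat. Per the file headers, spots were read with Agilent Feature Extraction 10.7.3.1 (protocol GE1_107_Sep09), and the processed signal is an intensity after background subtraction and detrending, not scaled between arrays. The deposited mean signal and local background are unscaled intensities. The deposited marks for spots (well above background, saturated, non-uniform, outlier) are of another kind, 0 or 1. The authors' series table is a score: by comparison with the scanner files it follows the quantile-normalized mean signal, centred on the median and divided by the interquartile range (662), without background subtraction.

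From the processed signal, marked spots (0.652%) were left out, log2 was taken, the 75th percentile of each array was subtracted, and spots were averaged over 30367 probes. Probes well above background on at least 6 arrays (21179) were kept, and the brightest probe stood for each of 18641 genes. Diets were compared with limma 3.58.1 in R 4.3.3, with 1 mean per diet, two-sided, and Benjamini-Hochberg adjustment over all genes at 0.05 in each of 6 comparisons. The number of arrays limits the precision, and p-values measure the spread between rats. Replicate numbers did not pair rats (correlations of -0.29 to 0.36 over 36 pairs of same-numbered rats). Alternatives were other background correction, normalization, filters, probe summaries, blocks, array weights and left-out rats. The second Csf1r probe, the slide 3 rats alone and correlations within diet and slide were added after the data were seen. The fit was tested on simulated data. The members, the lists and the pair of left-out rats were chosen with earlier results of these data known. All 10 members are named in every comparison, other genes come from the lists, and genes alike in pattern are the closest by Pearson's r. Drawings used matplotlib 3.10.9.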

Additional observations from a re-analysis of the deposited data

Results flagged for a closer look

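Levels that lay far from the rest of their diet were sought in 44 sets of 6 rats (11 probes, 4 diets), where the gap to the nearest rat, over the whole range, had to exceed Dixon's 95% critical value. That happened in 9 sets, and chance gives about 5% of sets. Of the 9, 5 belonged to the pair of rats described above. On adequate copper/30% sucrose, rat 5 was highest for Cd68 (2.19), Cd163 (1.14), C1qa (4.02) and C1qb (5.06). On low copper/10% sucrose, rat 2 was highest for Marco (0.53). On low copper/30% sucrose, rat 3 was highest for C1qa (3.12). On the control diet, rat 6 was lowest for Cd163 (-1.0), and rat 5 was highest for Csf1r (-1.66) and Vsig4 (-2.05). The copper difference in Csf1r differed between the sucrose contents, with an interaction of -1.10 (limma adjusted p = 0.00921), which was -0.37 (limma adjusted p = 0.653) with slide as a block.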

How the results depend on the processing

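The number of member genes called was 1 in adequate copper/30% sucrose against the control diet, in low copper/10% sucrose against the control diet and in the interaction, and 0 in the other 3 comparisons. With slide as a fixed or as a random block it was 0 in all 6. With the fixed block 0 members had an unadjusted limma p under 0.05, where 755 to 2531 of 18641 genes did, by comparison. The number called was also 0 for low copper/10% sucrose when only the groups compared were fitted, and when only its slide 3 rats were used. The slide 3 rats alone give the same differences as the fixed block, so they are not a separate result. With the fixed block, Csf1r on adequate copper/30% sucrose reversed to -0.11. With the random block Csf1r was 0.55 (limma adjusted p = 0.135) and 0.60 (0.0681) in the comparisons with the control diet and -0.91 (0.0614) in the interaction, and with only the groups compared it was 0.72 (0.0630) on low copper/10% sucrose. Leaving out each rat in turn gave 1 to 1 member called in the first 3 comparisons and 0 to 0 in the others. The replicate block kept 1, 1, 1, 0, 0 and 0. Of 2160 member values under all settings, the sign differed from the value reported in 100, of which 30 were with slide as a fixed block and 16 without the pair of rats; 8 were with quantile normalization and 7 with the authors' series table. Over all genes, 3905, 3475 and 3894 genes passed in the first 3 comparisons. With slide as a fixed block 0, 0 and 9 passed (755, 1250 and 2531 at an unadjusted limma p under 0.05), and with the random block 1361, 2314 and 1912. The cause was not tested. The number of member pairs that varied together was 28 of 45, and 28 within diet and slide. In low copper/30% sucrose against the control diet, 328 genes passed and 0 to 988 with 1 rat left out. Signal over background limits Tlr4 most, since 8 of 24 livers had it not well above background.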
